A study of Mus musculus with 13 samples.

Results

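The genes described here are 5 members of the S100 family, *S100a4*, *S100a6*, *S100a10*, *S100a11* and *S100a13*, and 5 annexins, *Anxa1*, *Anxa2*, *Anxa4*, *Anxa5* and *Anxa6*. They were taken by their symbols from both deposited count tables, and all 10 were present among the 24417 named genes. RNA was sequenced from sorted CD4 T cells of the spleen and lymph nodes of C57BL/6 mice in 2 experiments. The first asked how Treg cells made by restoring Foxp3 in diseased mice differed from Treg cells of healthy mice and from Treg “wannabes”, cells of the Treg lineage that are marked by Thy1.1 but lack Foxp3. The second asked how activation changed “wannabes”.

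The male groups were 3 control Treg libraries of *Foxp3* DTR-GFP/y *Cd4* creERT2 mice, 3 rescued Treg libraries of *Foxp3* LSL/y *Cd4* creERT2 mice and 2 male “wannabe” libraries of *Foxp3* LSL/y *Cd4* wt mice. The DTR-GFP allele makes functional Foxp3 together with GFP and the diphtheria toxin receptor. The LSL allele carries a Thy1.1 marker and a STOP cassette between loxP sites and makes no Foxp3 until Cre removes them. The Cre of these mice is expressed from *Cd4*, so it is active in all cells that express that gene, and it needs 4-hydroxytamoxifen (4-OHT). All male mice received a single dose of 4-OHT on postnatal day 14 and were 21 days old, also the “wannabe” mice, which carry no Cre and stayed sick. The female groups, with a labelled age of 9 to 11 weeks, were 3 resting “wannabe” libraries of *Foxp3* LSL/WT *Cd4* wt mice and 2 activated “wannabe” libraries of *Foxp3* LSL/DTR *Cd4* wt mice. All female mice were given diphtheria toxin on 4 days in the week before analysis (7, 5, 3 and 1 days before). The toxin removes the Treg cells that use the DTR allele, and so it leaves *Foxp3* LSL/WT mice their own Treg cells. Sex, age and treatment differ together between the experiments and cannot be told apart.

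S100 proteins are small calcium sensors of the cytosol that bind a target protein when calcium rises, and some are also released from cells. Annexins bind negatively charged phospholipids, in a calcium-dependent way, and act in vesicle traffic, in membrane repair and at the cell cortex. Some members of the families form complexes, such as S100A10 with annexin A2 and S100A11 with annexin A1, and several of these genes are known to be higher in activated and memory T cells than in naive ones.

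The 5 S100 genes all lie on the plus strand of chromosome 3 of GRCm38, in the GENCODE annotation. *S100a13* (chr3:90514435-90524581), *S100a4* (chr3:90603771-90606045) and *S100a6* (chr3:90612882-90624181) belong to a run of 12 S100 genes. *S100a11* (chr3:93520488-93526287) and *S100a10* (chr3:93555080-93564643) follow 2825 kb beyond the last gene of that run. *Anxa5* lies on chromosome 3 as well (chr3:36448923-36475894), and the other annexins on chromosomes 19 (*Anxa1*, chr19:20373428-20390944), 9 (*Anxa2*, chr9:69453620-69491795), 6 (*Anxa4*, chr6:86736840-86793584) and 11 (*Anxa6*, chr11:54979108-55033445). RefSeq promoter windows on GRCm38.p6, of 300 bases, were matched to 8 of the 10 genes, leaving *S100a10* and *Anxa6* named only. Below are the 250 bases before the start site, 5′ to 3′ on the strand of the gene, for *S100a6* and *S100a11*, whose RNA moved together in the male libraries, for *S100a4*, which had another order of levels there, and for *Anxa2*, the partner of *S100a10*. Capitals mark every match to 5 short motifs searched on both strands.

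*S100a6*, chr3:90612644-90612893: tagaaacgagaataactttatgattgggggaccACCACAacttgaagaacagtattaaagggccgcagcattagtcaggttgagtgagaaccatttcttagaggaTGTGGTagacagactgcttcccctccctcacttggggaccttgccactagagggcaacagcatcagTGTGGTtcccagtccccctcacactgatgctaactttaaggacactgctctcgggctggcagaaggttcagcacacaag
*S100a11*, chr3:93520246-93520495: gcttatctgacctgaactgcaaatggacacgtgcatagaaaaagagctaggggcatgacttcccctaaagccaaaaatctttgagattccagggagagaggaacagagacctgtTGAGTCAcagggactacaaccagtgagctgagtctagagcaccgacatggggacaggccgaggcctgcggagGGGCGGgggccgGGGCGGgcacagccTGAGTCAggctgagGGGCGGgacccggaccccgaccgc
*S100a4*, chr3:90603520-90603769: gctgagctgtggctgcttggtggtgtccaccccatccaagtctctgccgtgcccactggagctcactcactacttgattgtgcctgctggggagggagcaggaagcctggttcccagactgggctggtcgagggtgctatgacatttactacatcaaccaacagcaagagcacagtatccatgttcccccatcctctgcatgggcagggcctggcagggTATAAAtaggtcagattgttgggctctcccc
*Anxa2*, chr9:69453433-69453682: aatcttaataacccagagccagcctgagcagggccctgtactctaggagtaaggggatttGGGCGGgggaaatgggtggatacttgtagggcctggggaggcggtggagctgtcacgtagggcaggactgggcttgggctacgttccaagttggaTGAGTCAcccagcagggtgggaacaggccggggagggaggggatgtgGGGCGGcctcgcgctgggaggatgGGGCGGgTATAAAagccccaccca

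The *S100a6* window held the RUNX core TGTGGT 3 times, on the minus strand at -217 and on the plus strand at -145 and -79 from the start site. The *S100a11* window held 3 GC boxes (GGGCGG) and 2 AP-1 motifs (TGANTCA, which is the same on either strand). The *S100a4* window held a TATA box (TATAAA) at -31. The *Anxa2* window held 3 GC boxes, an AP-1 motif at -95 and a TATA box at -17, and no matches overlapped. The windows of *Anxa1* and *Anxa4* held a TATA box at -32 and a GC box just after the start site, and those of *S100a13* and *Anxa5* held no match, whereas the forkhead motif TGTTTAC was in no window of the 8 genes. Of the 32851 promoter windows of this length, 13.6% held TATAAA, 35.7% GGGCGG, 7.81% TGANTCA, 16.8% TGTGGT and 3.65% TGTTTAC. *Anxa4* had 2 windows, of which 1 held the match. These matches are letters in a window, and binding was not measured.

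Counts of 25556783 to 36659638 reads per library were available. Levels are given as CPM, the count of a gene relative to the total of its library, after scaling the libraries by TMM, a method that assumes most genes do not change, and each experiment was scaled on its own. *Foxp3* was highest in the rescued Treg libraries (865 to 1109 CPM), lower in the control Treg libraries (167 to 252 CPM) and lowest in the male “wannabes” (84.2 and 99.8 CPM). The labels set Treg cells apart from “wannabes” but give no order between the 2 Treg groups. A count per gene does not tell a complete from a truncated transcript. The female “wannabes” had 52.8 to 75.1 CPM. The summed markers of T cells (4 genes, 1648 to 3384 CPM) were far above those of B cells (4 genes, 9.80 to 44.0 CPM), CD8 T and NK cells (4 genes, 12.3 to 34.6 CPM), myeloid cells (7 genes, 1.67 to 13.7 CPM), neutrophils (5 genes, 0 to 1.28 CPM) and erythroid cells and platelets (4 genes, 0.191 to 16.2 CPM). *S100a8* and *S100a9*, the S100 genes of neutrophils, stood at 0.556 CPM or lower in every library. In bulk RNA, fewer cells of a type and less RNA per cell cannot be told apart.

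Levels of different genes are given per kilobase of exon, with the exons of all annotated transcripts of a gene merged. The transcripts expressed may be shorter, so the order of genes depends on this length. In rescued Treg cells *S100a6* had 309 CPM against 215 for *S100a11*, but 226 against 420 CPM per kb. On this scale *S100a10* was the highest of the S100 genes in every group, with group means of 152 to 547 CPM per kb. *S100a11* followed with 128 to 420 CPM per kb, while *S100a4*, *S100a6* and *S100a13* ranged from 26.2 to 226 CPM per kb. *Anxa6* was the highest annexin in every group, with 238 to 642 CPM per kb. *Anxa5* and *Anxa2* had 33.6 to 131 CPM per kb, *Anxa4* 5.31 to 7.90, and *Anxa1* was below *Anxa4* with 0.692 to 3.75 CPM per kb in 4 groups, but above it with 11.4 in the male “wannabes”. Of 12 other S100 genes in the tables, none reached a group mean above 5.68 CPM per kb, the level of *S100a1* in male “wannabes”. The other 9 genes of the run were thus below every described S100 gene in these cells. Some of the counts are uncertain. *S100a4* shares 302 exonic bases on its own strand with the readthrough gene *Gm42674*, the sources used here do not say how strand was treated for *Anxa2* and *Anxa4*, which share 98 and 75 exonic bases with antisense genes, and *S100a11* has 5 processed pseudogenes of at least 90% identity over the aligned bases, none of them listed in the tables.

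**Figure D1:**
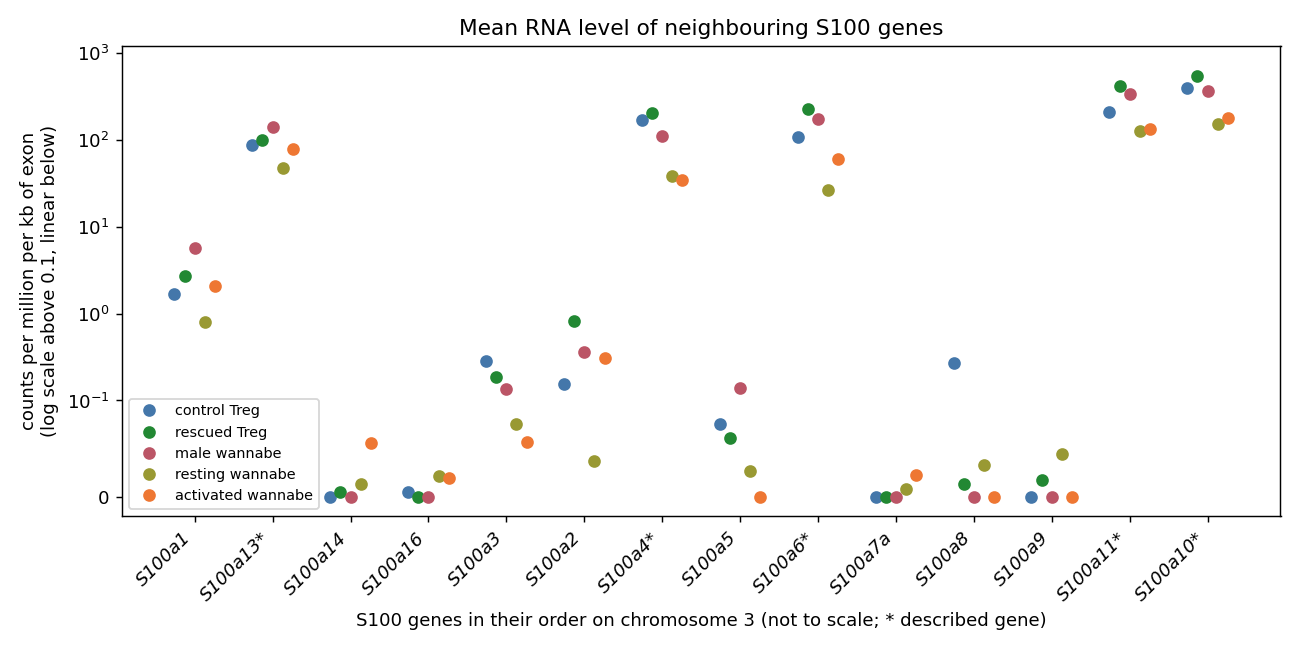
Mean RNA level of 14 S100 genes in their order on chromosome 3 (x axis, not to scale), in CPM per kilobase of exon (y axis, logarithmic above 0.1 and linear below), with a point per group. The 5 genes marked with an asterisk lie at 26.2 to 547, and the other 9 at 5.68 or lower.

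Rescued Treg cells had higher levels of *S100a6* and *S100a11* than control Treg cells, by 2.11-fold and 2.00-fold. *S100a6* encodes calcyclin, which binds a ubiquitin ligase adaptor, and had 163, 124 and 152 CPM in the control Treg libraries and 374, 309.8 and 243 CPM in the rescued ones. Every rescued library was above every control library, and the log2 fold change was 1.08 ± 0.18 (SE), with an edgeR quasi-likelihood adjusted p of 0.0125. *S100a11*, whose protein pairs with annexin A1, had 113, 89.8 and 119 CPM in control and 245, 210.3 and 189 CPM in rescued Treg libraries. Again the groups did not overlap, and the log2 fold change was 1.00 ± 0.16 (SE; edgeR adjusted p = 0.0116). These were the only members called by edgeR, 2 of 10, both higher, in a comparison in which 2.30% of 14925 tested genes were called and 1.43% were called higher.

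The other members lay on the same side without passing the threshold. All 10 log2 fold changes were above 0, with a median of 0.51, against -0.03 over all tested genes. For 5 members, each rescued library was above each control library, against 12.7% of all tested genes. Besides the 2 called genes these were *S100a10*, *Anxa1* and *Anxa6*. *S100a10*, the light chain of the complex with annexin A2 and the only S100 protein known to have lost calcium binding, had 542, 376 and 501 CPM in control and 711, 689 and 587 CPM in rescued Treg libraries. Its log2 fold change was 0.49 ± 0.16 (SE; edgeR adjusted p = 0.159). *Anxa1*, a ligand of formyl peptide receptors in its secreted form, had 2.58, 2.78 and 3.51 CPM in control and 16.4, 10.9 and 5.48 CPM in rescued Treg libraries. It had the largest log2 fold change of the members, 1.88 ± 0.47 (SE), but the rescued libraries were spread widely and the edgeR adjusted p was 0.0695. *Anxa6*, a large annexin that binds membrane cholesterol domains, had 1288, 1171 and 1164 CPM in control and 1625, 1579 and 1680.4 CPM in rescued Treg libraries, a log2 fold change of 0.43 ± 0.12 (SE; edgeR adjusted p = 0.0931). DESeq2 called these last 2 as well, *Anxa1* at an adjusted p of 0.00276 and *Anxa6* at 0.0206. *S100a4*, *S100a13*, *Anxa2*, *Anxa4* and *Anxa5* overlapped between the groups, with log2 fold changes of 0.04 to 0.57.

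The calls of *S100a6* and *S100a11* depended on single libraries. Leaving out control replicate 2, control replicate 3 or rescued replicate 1 gave *S100a6* an edgeR adjusted p of 0.0669, 0.0560 and 0.0534. Leaving out control replicate 1, control replicate 2 or rescued replicate 1 gave *S100a11* adjusted p-values of 0.0519, 0.0586 and 0.0527. Their log2 fold changes stayed between 0.88 and 1.22 in all 8 fits with a library left out. Without either male “wannabe” library, which is not in the contrast but enters the fit, *Anxa1* (adjusted p = 0.0344 and 0.0255) and *Anxa6* (0.0327 and 0.0348) were called by edgeR too. The summed B cell markers were 31.9 to 37.0 CPM in control and 38.1 to 42.1 CPM in rescued Treg libraries and the summed myeloid markers 4.70 to 11.6 and 6.52 to 13.7 CPM. Of the tested myeloid markers, 5 of 6 had a positive log2 fold change (median 2.23), among them *Cd68* with a mean of 0.538 CPM in control and 4.38 CPM in rescued Treg libraries, without overlap. The 4 CD8 T cell and NK cell markers were positive too (median 1.86), and their sums were 13.5 to 25.8 and 20.7 to 26.3 CPM. The part of these markers in the changes was not tested. Within the rescued group, replicate 3 was the lowest library for 9 of the 10 members, against 35.8% of all tested genes.

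**Figure D2:**
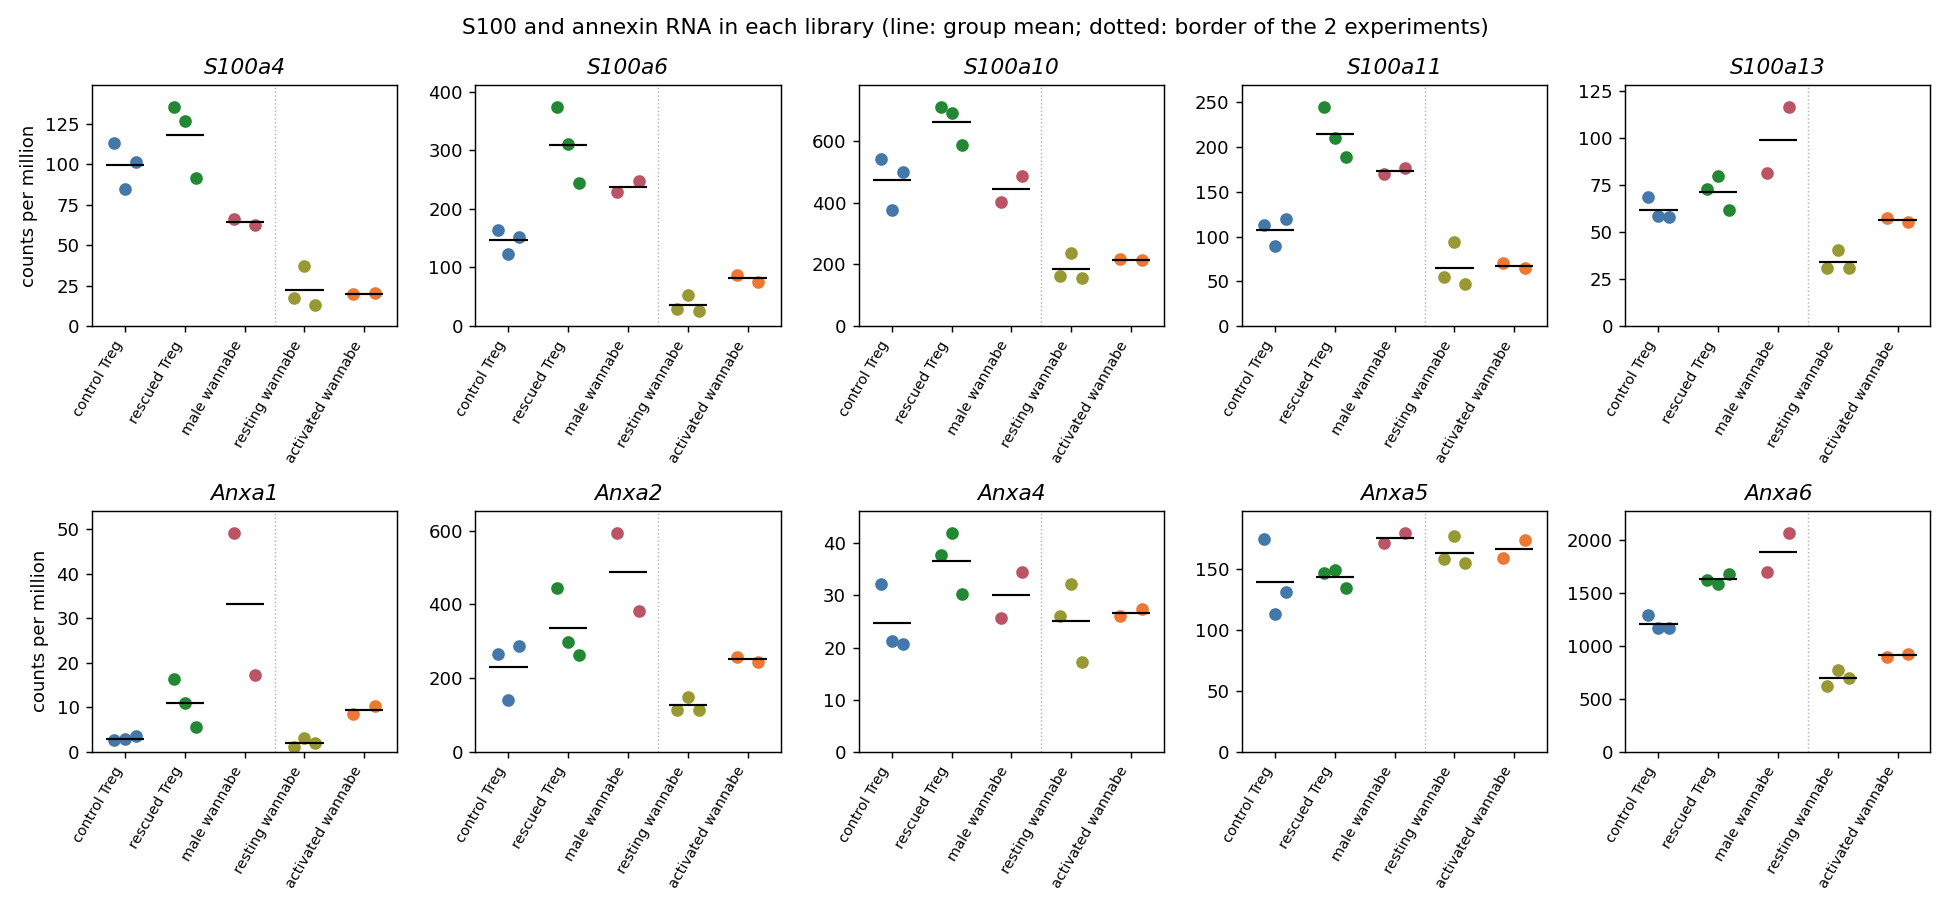
RNA level of each gene (panels) in every library, in CPM from 0 (y axis), by group (x axis), with a line at the group mean. The dotted line separates the male from the female experiment, which were scaled separately, and the rescued points of *S100a6*, at 243 to 374, lie above the control points, at 124 to 163.

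Control Treg cells had lower levels of 6 of the 10 members than male “wannabes” by edgeR. These were *S100a6*, *S100a11*, *S100a13*, *Anxa1*, *Anxa2* and *Anxa6*, and none was called higher by edgeR, while DESeq2 called *S100a4* higher as well. Over all tested genes 16.2% were called and 6.27% were called lower. The libraries did not overlap for 7 members, against 46.1% of all tested genes, and the median log2 fold change of the members was -0.66, against 0.09 over all tested genes.

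*Anxa1* had the widest gap, with 49.3 and 17.2 CPM in the male “wannabes” against 2.58 to 3.51 CPM in control Treg libraries. The “wannabe” libraries also differed widely from each other, and the log2 fold change was -3.49 ± 0.52 (SE; edgeR adjusted p = 0.00187). *Anxa2*, which links membranes to actin and forms the tetramer with S100A10, had 594 and 383 CPM in male “wannabes” and 264, 141 and 287 CPM in control Treg libraries. Its log2 fold change was -1.08 ± 0.31 (SE; edgeR adjusted p = 0.0357). *Anxa6* had 1694 and 2069 CPM in male “wannabes”, and its log2 fold change was -0.64 ± 0.13 (SE; edgeR adjusted p = 0.00776).

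Of the S100 genes, 3 were called lower. *S100a6* had 228 and 247 CPM in male “wannabes”, with a log2 fold change of -0.70 ± 0.20 in control Treg cells (SE; edgeR adjusted p = 0.0336). *S100a11* had 169.9 and 177 CPM, with a log2 fold change of -0.69 ± 0.18 (SE; edgeR adjusted p = 0.0244). *S100a13*, whose protein takes part in the release of FGF1 and interleukin-1α, had 81.3 and 116 CPM in male “wannabes” and 68.6, 58.6 and 58.1 CPM in control Treg libraries. Its log2 fold change of -0.68 ± 0.21 (SE) was just past the threshold (edgeR adjusted p = 0.0499). *S100a4*, which binds non-muscle myosin and is linked to cell motility, went the other way. It had 113, 84.5 and 101 CPM in control Treg libraries and 65.9 and 62.4 CPM in male “wannabes”, without overlap, and a log2 fold change of 0.63 ± 0.21 (SE; edgeR adjusted p = 0.0674). *S100a10*, *Anxa4* and *Anxa5* overlapped between these groups.

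*Anxa1* and *Anxa6* were called in each of the 8 fits with a library left out. The log2 fold change of *Anxa1* was -2.55 without “wannabe” replicate 1 and -4.10 without “wannabe” replicate 2, and that of *Anxa6* ranged from -0.78 to -0.54. The other 4 were not. *Anxa2* lost its call without control replicate 1 (edgeR adjusted p = 0.0681), control replicate 2 (0.0878), “wannabe” replicate 1 (0.199) or rescued replicate 2 (0.0546). *S100a11* lost it without control replicate 1 (0.0567), control replicate 2 (0.0876), “wannabe” replicate 2 (0.0525) or rescued replicate 2 (0.0509). *S100a6* stayed called only without rescued replicate 1 or 3, with edgeR adjusted p-values of 0.0527 to 0.113 without any other library. *S100a13* stayed called only without “wannabe” replicate 1 (0.0206) or rescued replicate 3 (0.0497), and had 0.0621 to 0.255 otherwise. *S100a4* gained a call without rescued replicate 3 (0.0423) and with DESeq2 (an adjusted p of 0.0446). In a fit of all 13 libraries *S100a6* (0.0781) and *S100a11* (0.0651) were not called, and in a fit of only the groups compared *S100a13* was not (0.0596). The summed myeloid markers were 2.58 to 6.66 CPM in male “wannabes”, with 2 of the 7 genes at 0, *Itgax* among them, and the summed B cell markers 34.6 to 44.0 CPM. The summed CD8 T cell and NK cell markers were 22.8 to 34.6 CPM in male “wannabes” against 13.5 to 25.8 CPM in control Treg libraries, the erythroid and platelet markers 2.33 to 11.8 against 0.489 to 2.42 CPM, and the T cell markers 2446 to 3384 against 1660 to 1724 CPM. In control Treg cells edgeR called *Cd4*, *Thy1*, *Klrb1c* and *Hba-a1* lower and *Itgam* higher. *Cd4* is the gene with the creERT2 allele in both Treg groups and the “wannabes” were sorted for the Thy1.1 marker, so the genotype or the sort at these 2 genes differed between the groups by design. The other T cell markers, *Cd3e* and *Cd3d*, were not called. The part of these markers in the changes was not tested.

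Rescued Treg cells had a higher level of *S100a4* than male “wannabes”. It was the only member called by edgeR, with 135, 127 and 91.6 CPM in rescued Treg libraries against 65.9 and 62.4 CPM in “wannabes”, a log2 fold change of 0.88 ± 0.22 (SE; edgeR adjusted p = 0.0201). The call is 1 of 10 members, in a comparison with 14.1% of tested genes called and 10.0% called higher. The libraries did not overlap for 7 members, against 42.7% of all tested genes. *S100a4*, *S100a10* and *S100a11* were above the “wannabes”, and *S100a13*, *Anxa1*, *Anxa5* and *Anxa6* below them. *S100a10* had a log2 fold change of 0.58 ± 0.18 (SE; edgeR adjusted p = 0.0618) and *Anxa1* one of -1.61 ± 0.50 (SE; edgeR adjusted p = 0.0546). *S100a6*, with a log2 fold change of 0.38 ± 0.20 (SE), was not distinguished from “wannabes” (edgeR adjusted p = 0.251). The call of *S100a4* was lost without “wannabe” replicate 1 (adjusted p = 0.0519), “wannabe” replicate 2 (0.0919) or rescued replicate 1 (0.0633), and in a fit of only the groups compared (0.0581) or of all 13 libraries (0.0756). *S100a10* was called without control replicate 2 (0.0471), by DESeq2 (0.0331) and in the fit of all 13 libraries (0.0447). *Anxa1* was called without “wannabe” replicate 2 (0.0155) or rescued replicate 1 (0.0368), by DESeq2 (0.0131), without the filter on low counts (0.0247) and in the fit of all 13 libraries (0.0479). Its log2 fold change was -0.66 without “wannabe” replicate 1 and -2.22 without “wannabe” replicate 2. The summed T cell markers were 1648 to 1770 CPM in rescued Treg libraries against 2446 to 3384 CPM in male “wannabes”, with *Cd4* and *Thy1*, the same 2 genes, called lower by edgeR and *Cd3e* and *Cd3d* not called. The summed myeloid markers were 6.52 to 13.7 against 2.58 to 6.66 CPM, with a positive log2 fold change for 5 of 6 (median 1.81) and none called. The part of these markers was not tested. The 3 male comparisons share their libraries, so these values are not independent of each other.

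Seen over the 3 male groups, *S100a4* and *S100a10* were lowest in “wannabes” by group mean, and the other 8 members in control Treg cells. *S100a13*, *Anxa1*, *Anxa2*, *Anxa5* and *Anxa6* were highest in “wannabes”, and the others in rescued Treg cells. *S100a6* and *S100a11* had a Pearson correlation of log2 CPM of 0.99 over the 8 male libraries, which share their group means, and of 0.63 over the 5 female ones. *S100a4* and *S100a11* had 0.97 over the female libraries and 0.21 over the male ones. The pair of complex partners *S100a10* and *Anxa2* had 0.22 over the male libraries and 0.72 over the female ones. Per kilobase, *S100a10* RNA was 5.38 to 8.20 times that of *Anxa2* in control Treg libraries and 4.93 to 7.11 times in rescued ones, but 2.08 and 3.92 times in male “wannabes”.

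Activated “wannabes” had higher levels of 5 of the 10 members than resting “wannabes”, and none was called lower. Of all 13166 tested genes, 22.5% were called in this comparison and 11.3% were called higher. The activated libraries were above all resting ones for the same 5 members, against 27.9% of all tested genes, and the median log2 fold change of the members was 0.31, against -0.0073 over all tested genes.

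*Anxa2* had 113, 149 and 114 CPM in resting and 257 and 244 CPM in activated libraries. That is a log2 fold change of 1.00 ± 0.13 (SE; edgeR adjusted p = 0.00394), with the lowest adjusted p of the members. *S100a10* had 162, 236 and 156 CPM in resting and 217 and 214 CPM in activated libraries, within the resting range, with a log2 fold change of 0.22 ± 0.18 (SE; edgeR adjusted p = 0.413). The ratio of *S100a10* to *Anxa2* per kilobase was 4.20 to 4.88 in resting libraries and below that in both activated ones, 2.60 in the first. *Anxa1* had 0.957, 3.16 and 1.92 CPM in resting and 8.40 and 10.2 CPM in activated libraries, a log2 fold change of 2.20 ± 0.44 (SE; edgeR adjusted p = 0.0171). *Anxa6* had 623, 772 and 694 CPM in resting and 897 and 928 CPM in activated libraries, a log2 fold change of 0.39 ± 0.10 (SE; edgeR adjusted p = 0.0359). *Anxa4* and *Anxa5*, the latter known as the stain for phosphatidylserine on dying cells, stood at 17.2 to 32.2 and 154 to 177 CPM over the 5 libraries, with log2 fold changes of 0.09 ± 0.25 and 0.03 ± 0.09 (SE).

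Of the S100 genes, *S100a6* had 28.5, 52.6 and 26.4 CPM in resting and 87.8 and 74.9 CPM in activated libraries. Its log2 fold change was 1.18 ± 0.29 (SE; edgeR adjusted p = 0.0324). *S100a13* had 30.6, 40.1 and 30.9 CPM in resting and 57.3 and 55.2 CPM in activated libraries, a log2 fold change of 0.73 ± 0.14 (SE; edgeR adjusted p = 0.0154). *S100a1*, which starts on the opposite strand 0.04 kb from *S100a13*, was called higher as well, at 0.490 to 0.602 CPM in resting against at least 1.41 CPM in activated libraries (log2 fold change 1.37 ± 0.39, SE; edgeR adjusted p = 0.0476). It was named after its values were seen, and it was not called once any library was left out (adjusted p up to 0.245). *S100a11* and *S100a4* were not called, with log2 fold changes of 0.05 ± 0.29 and -0.17 ± 0.42 (SE).

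**Figure D3:**
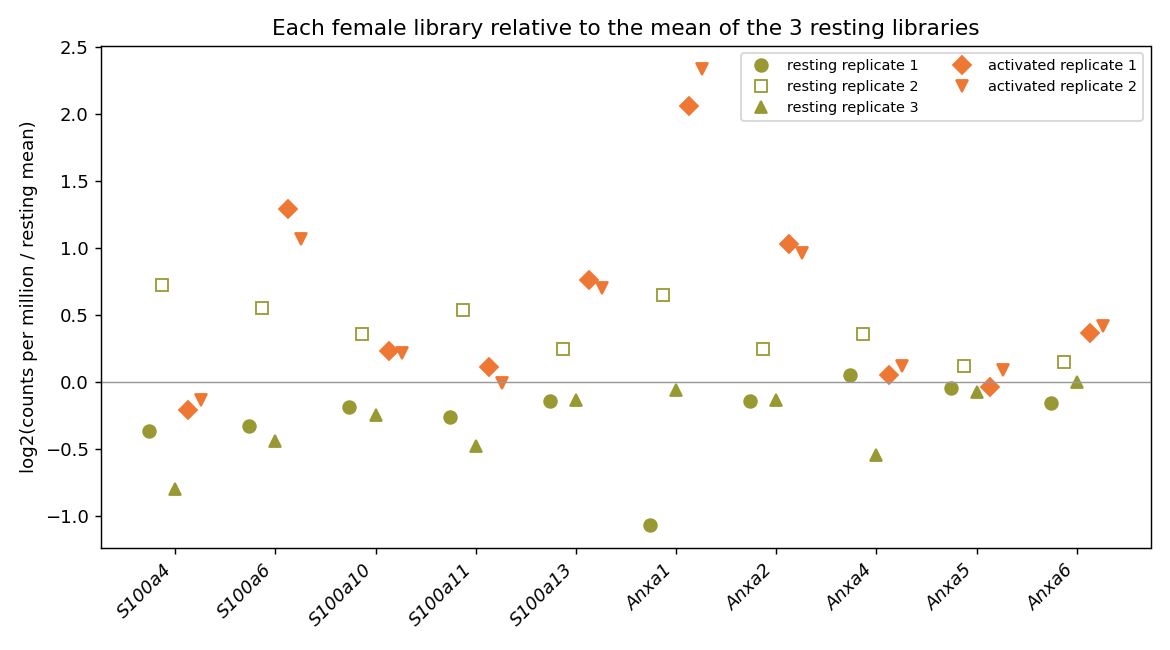
Level of each gene (x axis) in the 5 female libraries, as log2 of the ratio to the mean of the 3 resting libraries (y axis). Open squares mark resting replicate 2, which is the highest resting library for all 10 genes, and orange marks the 2 activated libraries, which lie above every resting library for *S100a6*, *S100a13*, *Anxa1*, *Anxa2* and *Anxa6*.

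Resting replicate 2 was the highest resting library for all 10 members, whereas it was the highest for 39.4% of all tested genes. *S100a4* had 17.4, 37.2 and 12.9 CPM in the resting libraries and 19.5 and 20.5 CPM in the activated ones, and *S100a11* 54.5, 94.4 and 46.8 against 70.3 and 64.7 CPM. Without that library 7 members were called, *S100a10* (log2 fold change 0.44, edgeR adjusted p = 0.0120) and *S100a11* (0.41, adjusted p = 0.0493) in addition, among 3215 called genes of 13005, and the log2 fold change of *S100a4* was 0.40 (adjusted p = 0.168). *Anxa2* was called in each of the 5 fits with a library left out, but neither it (adjusted p = 0.0623) nor *Anxa6* (0.0939) in a fit of all 13 libraries. *S100a13* and *Anxa1* lost their calls without activated replicate 1 (edgeR adjusted p = 0.111 and 0.0852) or activated replicate 2 (0.0961 and 0.117), which leaves that group with 1 library. *S100a6* and *Anxa6* stayed called only without resting replicate 2, with adjusted p-values of 0.0598 to 0.175 and 0.0532 to 0.194 without any of the others. The summed B cell markers were 9.80 to 12.1 CPM in resting and 22.4 to 24.6 CPM in activated libraries and the summed myeloid markers 1.67 to 5.32 and 5.53 to 10.4 CPM, with *Itgax* at 0 in the resting libraries. The summed CD8 T cell and NK cell markers were 12.3 to 15.4 CPM in resting and 17.7 to 18.1 CPM in activated libraries, and the summed T cell markers 2565 to 2809 and 2323 to 2375 CPM. The summed erythroid and platelet markers were 0.240 to 16.2 CPM in resting and 0.191 to 0.225 CPM in activated libraries. Of these markers edgeR called 1 B cell marker higher and 1 T cell marker lower. The part of these markers in the changes of the members was not tested.

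**Figure D4:**
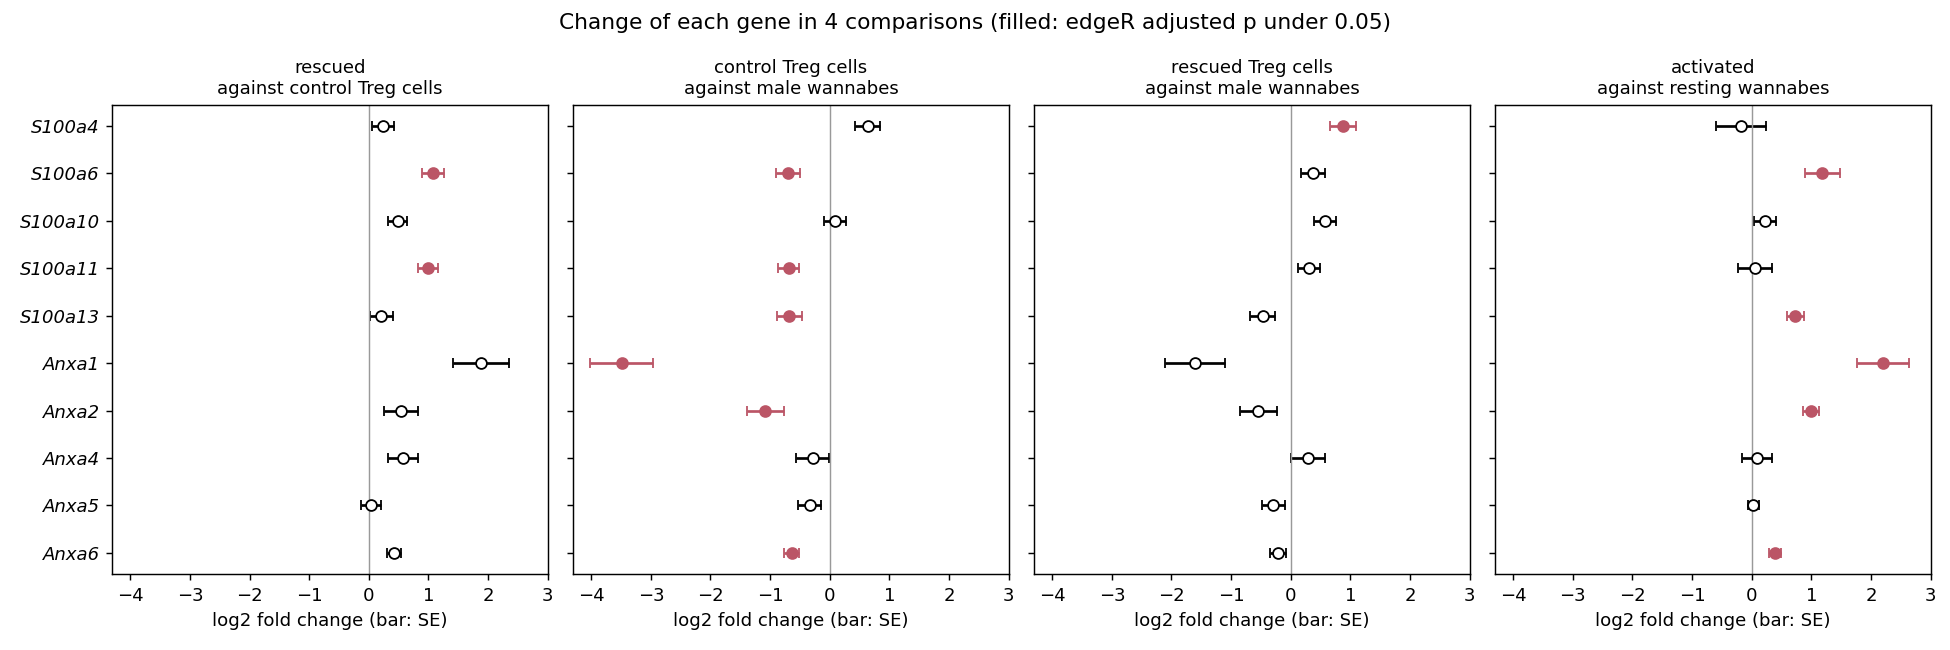
Log2 fold change with its standard error (x axis) of each gene (y axis) in the 4 comparisons (panels). Filled red points passed an edgeR adjusted p of 0.05, which holds for 2, 6, 1 and 5 of the 10 genes from left to right.

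The difference between the change from control to rescued Treg cells and the change from resting to activated “wannabes” was tested over all 13 libraries. No member was called by edgeR or by DESeq2, while edgeR called 1.53% of 15201 tested genes. Of all these genes 2096 had an unadjusted edgeR p under 0.05, as did 1 member. That was *S100a11*, which changed by 1.00 in Treg cells and 0.05 in “wannabes”, a difference of 0.96 ± 0.33 on the log2 scale (SE; adjusted p = 0.201). For *S100a6* the difference was -0.09 ± 0.36 (SE), for *Anxa6* 0.06 ± 0.17, for *Anxa2* -0.45 ± 0.39, for *Anxa1* -0.31 ± 0.72 and for *S100a13* -0.51 ± 0.26. These values do not show that the changes were alike. Levels in the 2 experiments, scaled separately, are set side by side only. *S100a4* had 62.4 to 135 CPM in male and 12.9 to 37.2 CPM in female libraries, and *S100a10* 376 to 711 and 156 to 236 CPM, whereas *Anxa5* had 113 to 179 and 154 to 177 CPM.

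Few relatives of the described genes were expressed highly enough to be tested. Of 12 other S100 genes in the tables, 4 were tested in each fit, and of 7 other annexins, 4. In the 3 male comparisons edgeR called none of either list, with 0, 2 and 0 S100 genes and 1 annexin each time at an unadjusted p under 0.05. Of all 14925 tested genes, 2403, 4655 and 4178 had such a p. DESeq2 called *S100g* higher and *S100a1* lower in control Treg cells than in male “wannabes”, and called *Anxa3* lower in both comparisons with rescued Treg cells. These genes had low levels, and their DESeq2 calls were not refitted with a library left out. *S100g* had 0.294, 0.556 and 4.14 CPM in control Treg libraries, and at most 0.164 CPM in male “wannabes”. *S100a1* had 0.778 to 1.67 CPM in control Treg libraries and 3.84 and 4.04 CPM in male “wannabes”. *Anxa3* was at 0 in all rescued Treg libraries, with 0.0327 to 3.22 CPM in control Treg libraries and 0 and 2.07 CPM in male “wannabes”. In activated against resting “wannabes” edgeR called *S100a1* alone and no annexin, with no annexin at an unadjusted p under 0.05 and none called by DESeq2. For the difference of changes edgeR called none, with 0 S100 genes and 1 annexin at an unadjusted p under 0.05, and DESeq2 called *Anxa3*. Over all tested genes, 5016 of 13166 had such an edgeR p in activated against resting “wannabes” and 2096 of 15201 for the difference. The median log2 fold change was -0.92, 0.96, -0.32 and -0.78 for the S100 genes and 0.20, -0.43, -0.37 and -0.04 for the annexins, in the order of the comparisons above, against -0.03, 0.09, 0 and -0.0073 over all tested genes. Each of these list medians is of 4 genes, and no other S100 gene had a group mean above 3.94 CPM. *Anxa7* and *Anxa11*, the other annexins at appreciable levels, had group means of 72.9 to 89.5 and 53.5 to 83.3 CPM.

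Among 19 partners and receptors of these proteins, the clearest change was in *Ahnak*, the giant scaffold that binds the S100A10 and annexin A2 complex. *Ahnak* had 224, 222 and 215 CPM in control Treg libraries, 396, 394 and 431 CPM in rescued Treg libraries, and 434 and 409.8 CPM in male “wannabes”. In rescued against control Treg cells its log2 fold change was 0.88 ± 0.12 (SE; edgeR adjusted p = 0.00582) and it was the only partner of 17 tested that was called. Control Treg cells were lower than male “wannabes” by a log2 fold change of -0.94 ± 0.13 (SE; edgeR adjusted p = 0.00153). In the female libraries it went down, from 311, 332 and 265 CPM in resting to 215 and 219 CPM in activated “wannabes”, and the log2 fold change was -0.48 ± 0.11 (SE; edgeR adjusted p = 0.0251). This last call was lost without resting replicate 1 or either activated library (adjusted p up to 0.152). The difference between the changes of *Ahnak*, 1.38 ± 0.16 on the log2 scale (SE), was called by edgeR (adjusted p = 0.00119) and was the only call among the partners.

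The other partners were mixed. Control Treg cells were higher than male “wannabes” for *Rasa1*, a Ras GTPase activator that binds annexin A6 (log2 fold change 1.47 ± 0.37, SE), and for *Prkca*, protein kinase Cα (1.34 ± 0.31), with edgeR adjusted p-values of 0.0218 and 0.0143. *Rasa1* lost its call without control replicate 1, control replicate 3 or “wannabe” replicate 2 (adjusted p up to 0.112), with a log2 fold change of 2.20 without “wannabe” replicate 1 and 0.94 without “wannabe” replicate 2, and *Prkca* lost it without either “wannabe” library (up to 0.0562). *Prkca* was called in rescued Treg cells against male “wannabes” too (1.02 ± 0.31, adjusted p = 0.0478), a call that held only without rescued replicate 1 when a library was left out, and its log2 fold change was 0.58 without rescued replicate 3. In activated “wannabes”, *Cacybp*, the binding protein of S100A6, was lower than in resting ones (-0.75 ± 0.10, adjusted p = 0.00394). Leaving out activated replicate 1 ended that call (adjusted p = 0.0581), as did a fit of all 13 libraries (0.155). By DESeq2 alone *Cacybp* was called higher and *Fpr2* and *Myh9* lower in control Treg cells than in male “wannabes”. In rescued Treg cells against male “wannabes” DESeq2 added *Rasa1*, higher, and *Myh9* and *Trp53*, lower. In activated “wannabes” it added *Plat* and *Hltf*, both lower. The median log2 fold change over the tested partners was -0.09 in rescued against control Treg cells, -0.10 in control Treg cells against “wannabes”, -0.05 in rescued Treg cells against “wannabes” and -0.15 in activated against resting “wannabes”.

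Of 15 genes of calcium-dependent membrane repair, 14 passed the filter on low counts for the male samples and 13 for the female ones. Rescued Treg cells were higher than control Treg cells for *Capn2*, a calcium-activated protease (0.78 ± 0.17, adjusted p = 0.0393), and *Pdcd6ip*, the ESCRT adaptor ALIX (0.70 ± 0.14, adjusted p = 0.0295). Both lost the call in most fits with a library left out, in 5 and 6 of 8, with adjusted p up to 0.166 and 0.131. Both were also higher than in male “wannabes”, in control (1.01 ± 0.20 and 1.25 ± 0.17) and in rescued Treg cells (1.79 ± 0.20 and 1.96 ± 0.17), with edgeR adjusted p of 0.00615 and 0.00111, and 0.000383 and 0.000233, and these calls held in all 8 fits with a library left out. *Chmp4b*, an ESCRT subunit, was higher in rescued Treg cells than in “wannabes” (1.25 ± 0.32, adjusted p = 0.0246), and *Capn1* and *Capns1*, calpain subunits, were lower in control Treg cells (-0.84 ± 0.21 and -0.75 ± 0.21, adjusted p = 0.0186 and 0.0317). These 3 calls were lost in 4, 4 and 5 of the 8 fits (adjusted p up to 0.0963, 0.0985 and 0.139). *Cpne1*, a copine, was lower in control Treg cells as well (-0.55 ± 0.15, adjusted p = 0.0279). Whether this call holds with a library left out was not examined. *Myof*, the ferlin myoferlin, stood in activated “wannabes” at 1.15 and 0.675 CPM against 15.9, 28.6 and 15.2 CPM in resting ones, and its log2 fold change was -4.44 ± 0.43 (SE; edgeR adjusted p = 0.00131), called whichever library was left out. *Vps4a* (-0.44 ± 0.09, adjusted p = 0.0199) was lower and *Capn2* (0.45 ± 0.07, adjusted p = 0.00711) and *Cpne1* (0.30 ± 0.07, adjusted p = 0.0270) higher, each lost without either activated library (adjusted p up to 0.150, 0.0837 and 0.198) and *Cpne1* also without resting replicate 3 (0.0585). For the difference of changes edgeR called none of 14, with 4 at an unadjusted p under 0.05, against 2096 of all 15201 tested genes. DESeq2 called *Pdcd6ip*. By DESeq2 alone *Ehd1* was called higher and *Cpne3* lower in rescued against control Treg cells. Against male “wannabes” it added *Pdcd6*, lower in control Treg cells, and *Capn1* and *Capns1*, lower in rescued Treg cells. In activated “wannabes” it added *Capn1*, higher. The median log2 fold change of the list was 0.25, -0.0046, 0.20 and 0.12 in the 4 comparisons.

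The genes whose log2 CPM was most like that of a member were ranked over 11451 genes by the lower of the Pearson correlations over the 8 male and over the 5 female libraries, which share their group means. For *S100a10*, the highest S100 gene, they were *Phlda3*, *Tstd3*, *Slc35d2*, *E2f4* and *C2cd2l*, at 0.87 to 0.94. For *Anxa6*, the highest annexin, they were *Arpc4*, *Rab8a*, *Ccl1*, *Epas1* and *Ptpn3*, at 0.96 to 0.98. For *Anxa2*, chosen after its values were seen, they were *Cdk1*, *Stmn1*, *Mcm4*, *Knstrn* and *Ube2c*, at 0.98 to 0.99.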

How the data were processed

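RNA-seq data of 8 libraries from male and 5 from female mice were analysed, grouped by their titles and genotypes. The design text of the series gives the female group sizes the other way round, and the titles, genotypes and methods were followed. The libraries came from separate mice or biological replicates by the study's methods. RNA was amplified with SMART-Seq v4. Reads were mapped by the authors to GRCm38 with STAR 2.7.3a, GATK was used for local realignment, and R gave the deposited raw counts of each gene. The gene annotation, the strand setting and the treatment of reads with several matches are not given in the sources used here. Amplification can widen the spread of low counts, and reads carry no molecular identifiers.

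Each table has 24421 entries, of which 4 without a name (0.0035 to 0.0084% of counts) were left out. Counts were fitted with edgeR 4.0.16 in R 4.3.3 (TMM, filterByExpr, quasi-likelihood F test, Benjamini-Hochberg over all tested genes, adjusted p under 0.05), male and female libraries separately and the difference of changes over all 13. Log2 fold changes come from these fits. The SE after ± was derived from the test, as the absolute log2 fold change divided by the square root of F. Biological variation (edgeR's common coefficient) was 0.510 for male and 0.171 for female libraries. For correlations, 2 was the prior count added before taking log2 CPM. The 10 genes and the gene lists were chosen with earlier results of these data known. All members were named. Of each other list, up to 4 called genes per comparison with the largest change and a mean of at least 1 CPM were named. Likeness was given for the S100 gene and the annexin with the highest level. *Cpne1* in control Treg cells, *S100a1*, *Anxa7*, *Anxa11* and the genes called by DESeq2 alone were named after their values were seen. Alternatives were DESeq2 1.42.0, its size factors in edgeR, no filter, a replicate block, only the groups compared, all 13 libraries in 1 fit, and leaving out each library. Gene coordinates are from GENCODE M21 and promoters from RefSeq on GRCm38.p6. No protein sequences and no single-cell libraries were used here.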

Additional observations from a re-analysis of the deposited data

Results flagged for a closer look

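*Ahnak*, which encodes a scaffold of the S100A10 and annexin A2 complex, was the only gene of the S100, annexin, partner and membrane repair lists whose change differed between the experiments in edgeR's test of the difference itself. Its log2 fold change in rescued against control Treg cells exceeded that in activated against resting “wannabes” by 1.38 ± 0.16 (SE; edgeR adjusted p = 0.00119), and the difference was called in each of the 13 fits with a library left out, with values of 1.30 to 1.46. Rescued Treg libraries, at 394 to 431 CPM, were all above control Treg libraries, at 215 to 224 CPM, and activated “wannabes”, at 215 and 219 CPM, were below all resting ones, at 265 to 332 CPM. Experiment, sex and age cannot be told apart from this difference.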

How the results depend on the processing

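Of the 10 members, 2 were called in rescued against control Treg cells, and 4 with DESeq2, 3 without the filter on low counts, 4 in a fit of only the groups compared, 4 in a fit of all 13 libraries, and 0 to 4 with a library left out. In control Treg cells against male “wannabes” 6 were called, and 7 with DESeq2, 5 in a fit of only the groups compared, 4 in a fit of all 13 libraries and 2 to 7 with a library left out. In rescued Treg cells against male “wannabes” 1 was called, and 3 with DESeq2, 2 without the filter on low counts, 0 in a fit of only the groups compared, 2 in a fit of all 13 libraries and 0 to 2 with a library left out. In activated against resting “wannabes” 5 were called, and 3 in a fit of all 13 libraries and 1 to 7 with a library left out. For the difference between the changes of Treg cells and “wannabes” no member was called by edgeR under any alternative or by DESeq2. Calls over all tested genes moved with the settings too. In rescued against control Treg cells there were 343 of 14925, with 1096 by DESeq2 and 612 of 19666 without the filter. There were 580 of 13622 with only the groups compared and 929 of 15201 in the fit of all 13 libraries. In control Treg cells against male “wannabes” there were 2416 of 14925, with 3601 by DESeq2. Only the groups compared gave 2056 of 14117, and all 13 libraries 3775 of 15201. In rescued Treg cells against male “wannabes” there were 2105 of 14925, with 3147 by DESeq2 and 2200 of 19666 without the filter. Only the groups compared gave 1421 of 13965, and all 13 libraries 3162 of 15201. In activated against resting “wannabes” there were 2958 of 13166, and 869 of 15201 with all 13 libraries. Without 1 control or rescued library the male comparisons had 114 to 187, 1549 to 2423 and 1570 to 1818 calls. Without 1 resting library the female one had 2344 to 3215. Where a library was left out and a group kept 1 library, that library was assumed to vary like the others.

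With the replicate number as a block, 2, 4, 1, 5 and 0 members were called in the 4 comparisons and the difference, and *S100a6* and *S100a13* lost their calls in control Treg cells against male “wannabes” (adjusted p = 0.0557 and 0.105). Same-numbered libraries had correlations of their deviations from the group means of -0.03 to 0.08, and libraries of different number -0.13 to 0.07. In groups of 2 libraries the deviations mirror each other. These values therefore cannot show whether the numbers pair the libraries. Over all genes the block gave 426, 2304, 1968, 2045 and 238 calls, against 343, 2416, 2105, 2958 and 233 without it. The block turned the activated against resting log2 fold change of *S100a11* to -0.091, of *Anxa4* to -0.12 and of *Anxa5* to -0.0097, and the difference of changes of *S100a6* to 0.011.

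With a library left out, the log2 fold change of some members that were not called crossed 0. In rescued against control Treg cells *Anxa5* ranged from -0.093 to 0.23, and in control Treg cells against “wannabes” *S100a10* from -0.048 to 0.23. In activated against resting “wannabes” *S100a4* ranged from -0.45 to 0.40, *S100a11* from -0.14 to 0.41, *Anxa4* from -0.13 to 0.30 and *Anxa5* from -0.050 to 0.089. For the difference of changes *S100a4* ranged from -0.14 to 0.71, *S100a6* from -0.47 to 0.087, *Anxa1* from -0.79 to 0.029, *Anxa5* from -0.083 to 0.21 and *Anxa6* from -0.025 to 0.14. Over the values of named genes under the alternatives, 807 kept direction and side of the threshold, 116 lost a call, 23 gained a call and 27 changed sign. The cause of these changes was not tested. With 2 or 3 libraries a group, smaller changes may have been missed.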
